A study of Mus musculus with 7 samples.

Results

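The genes described here encode the receptors for fast and modulatory transmission by glutamate, GABA, glycine and acetylcholine: the ionotropic glutamate receptors (Gria, Grik, Grin and Grid), the metabotropic glutamate receptors (Grm), the GABA-A and GABA-B receptors (Gabr and Gabbr), the glycine receptors (Glr) and the nicotinic acetylcholine receptors (Chrn). They were chosen by gene symbol alone. Of the 29777 genes in the count table, 68 have such a symbol and 64 of these had at least 1 read; Chrna2, Gabra6, Gabrd and Gabrp had 0 counts in every library. RNA was sequenced from GFP+ cells of cervical dorsal root ganglia (DRG), taken from ICR mouse embryos at stage E11.5 and labelled as TrkC neurons, the neurons from which muscle proprioceptors develop. Of the 7 libraries, 3 are Runx3-P2+/- (heterozygote) and 4 are Runx3-P2-/- (homozygote). Runx3-P2 is an allele of Runx3, a Runt-family transcription factor, and it places GFP under that locus. Every library thus comes from cells that carry at least 1 such allele, and none is from wild-type embryos; the file headers nevertheless call the heterozygotes WT. The GFP that defines the sort is driven by the gene under study. The design text gives pools of 4 for each genotype, and whether libraries of a genotype came from separate litters is not stated, so a p-value here covers the spread among the libraries as deposited.

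These receptors are built from subunits, and the subunit mixture sets how a receptor behaves. AMPA, kainate and NMDA receptors are tetramers of glutamate-gated subunits that let cations in, whereas GABA-A and glycine receptors are pentamers that pass chloride, and nicotinic receptors are cation-selective pentamers of the same superfamily. The metabotropic glutamate receptors and the GABA-B receptor act through G proteins. In the adult, primary afferents such as proprioceptors release glutamate in the spinal cord. Primary afferents of various types can carry GABA-A or kainate receptors on their own axons and terminals, where these receptors modulate transmitter release. At the embryonic stage studied here the axons are only growing toward their targets.

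Runx3 itself had 862 to 1088 counts in the heterozygote libraries and 81 to 148 in the homozygote libraries, and it fell by 3.22 ± 0.30 (SE) on the log2 scale, with an adjusted p of 0.00593 in the edgeR quasi-likelihood test (0.0885 without heterozygote library 2 and 0.0576 without heterozygote library 3). Libraries held 11184237 to 13986835 counts, of which receptor genes took 6907 to 10317, or 0.0574% to 0.0807%. Levels are given as CPM, which is counts scaled to library size with TMM factors, and 3 counts, the limit that a count of 0 allows, correspond to 0.219 to 0.261 CPM by library, for counting error only. In a principal component analysis of the 500 tested genes with the largest variance, the first component held 63.0% of their variance; on it, heterozygote library 3 (-68.3) and homozygote library 3 (65.9) lay at opposite ends and the other 5 libraries between -29.3 and 20.6. The sensory neuron genes Isl1, Pou4f1 and Ntrk3 (which encodes TrkC) had reads in every library, and the sum over 15 sensory neuron markers was 20204 to 22815 CPM in heterozygotes, 18737 to 20208 CPM in 3 homozygote libraries and 11527 CPM in homozygote library 3. Bulk libraries do not separate fewer cells of a type from less RNA per cell. Markers of other cells also differed. The summed level of 17 leukocyte markers was 292 to 362 CPM in heterozygotes and 761 to 4531 CPM in homozygotes, highest in homozygote library 3. Of these sums, Coro1a alone held 208, 226 and 283 CPM in heterozygote libraries and 247 to 621 CPM in homozygote libraries. The median log2 fold change over the 17 was 3.98, and that of Coro1a was 0.60. Cx3cr1, Lyz2, Mrc1 and C1qc were at 0 in heterozygote library 3. Spinal cord markers summed to 16.9 to 60.9 CPM in heterozygotes and 42.5 to 156 CPM in homozygotes, with Olig1 at 0 in every library. Pax3 alone held 16.8 to 49.1 CPM of these sums in heterozygotes and 30.7 to 75.5 CPM in homozygotes. The part of these other cells in the results below was not tested.

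No receptor gene passed the main test, but the levels of some single genes did not overlap between genotypes. Grik1, Gria2 and Grm3, for example, were lower in every homozygote library than in any heterozygote library, and Gria3, Gabrb2, Grm7 and Grin2b were higher. Lack of overlap alone does not set a difference apart from the spread between libraries. Among these genes, Grin2b had an unadjusted edgeR p above 0.05 and the others had one below it. In total, receptor genes summed to 748, 715 and 761 CPM in the heterozygotes (741 ± 23.5, SD, n = 3) and to 678, 802, 553 and 738 CPM in homozygote libraries (693 ± 106, SD, n = 4). Those ranges overlapped, and homozygote library 3 was lowest. Of the 64 genes, 38 passed the filter on low counts and were tested; the other 26 had at most 97 counts over all libraries. edgeR called 0 of the 38 at an adjusted p below 0.05, where it called 0.0499% of the 14040 genes tested (0.0142% higher and 0.0356% lower in homozygotes). Of the 38, 7 (18.4%) had an unadjusted p below 0.05, 3 higher and 4 lower in homozygotes, beside 12.6% of all tested genes (7.75% higher, 4.88% lower). With DESeq2, 5 of the 38 (13.2%) passed an adjusted p of 0.05, 1 higher and 4 lower in homozygotes, beside 4.76% of all genes (3.45% higher, 1.31% lower). The 2 genotypes did not overlap in 8 of the 38 (21.1%), 4 higher and 4 lower, beside 12.4% of all genes (6.6% higher, 5.78% lower). The median log2 fold change over the 38 was -0.093 and that over all tested genes -0.018. Gria3, Grik1 and Grm3 were the 3 members in the authors' deposited shorter list, which held 2.4% of the genes with reads. That list is labelled with an FDR of 0.05 and a fold change of 2. Gria2 was not on it, though its deposited adjusted p was 0.0279, at a log2 fold change of -0.74.

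**Figure D1:**
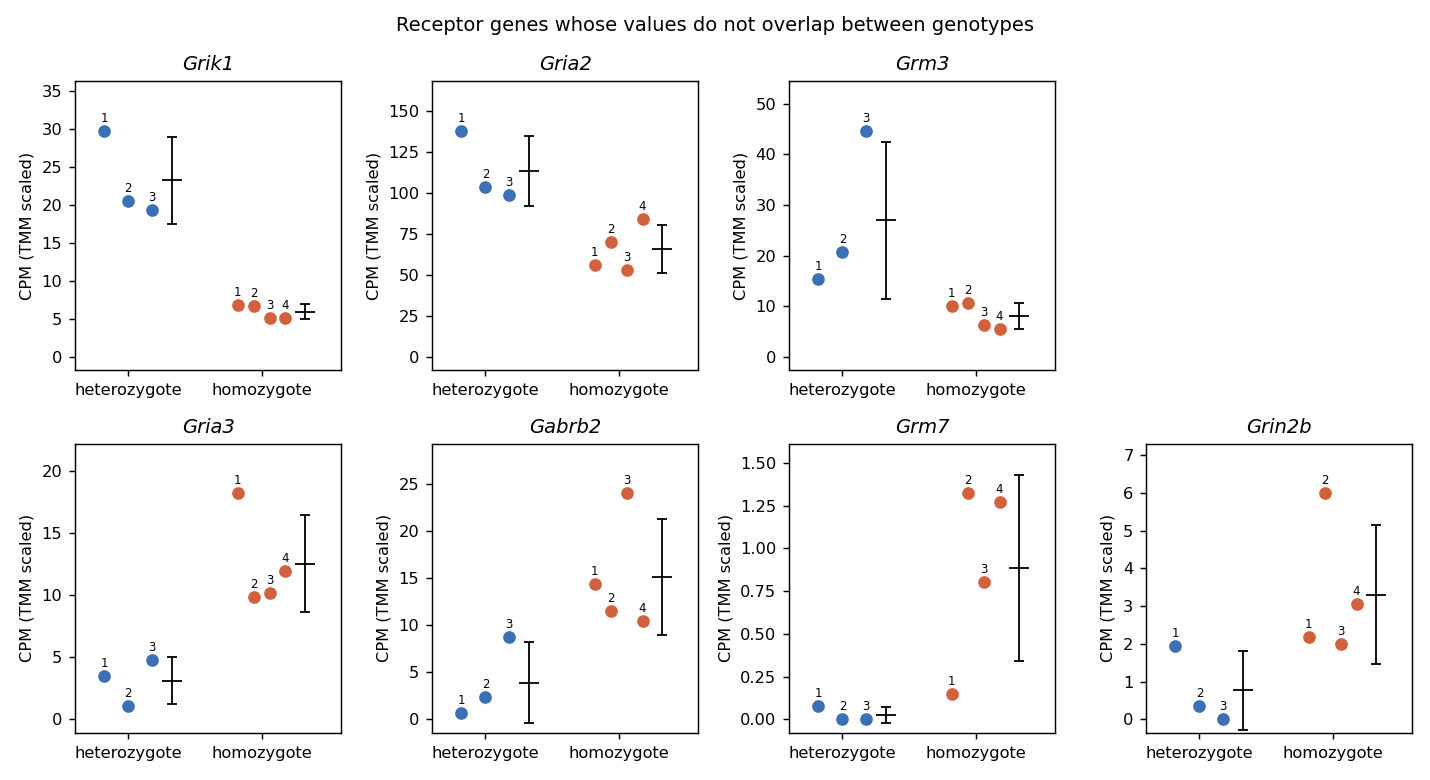
CPM (linear axis, TMM scaled) of 7 receptor genes without overlap between genotypes, with each library as a point numbered by its replicate and the mean ± SD beside it (3 heterozygotes in blue, 4 homozygotes in orange). The upper row holds 3 genes that were lower in homozygotes, with Gria2 at 98.4 to 138 CPM in heterozygotes and 52.6 to 84.2 CPM in homozygotes; the lower row holds the 4 that were higher, of which Grm7 and Grin2b stayed under 7 CPM.

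Among AMPA receptor genes, Gria2 was lower and Gria3 higher in homozygotes, and so were their shares of the family. Gria2, whose edited product makes AMPA receptors nearly impermeable to calcium, was the most abundant AMPA gene. Its levels were 138, 104 and 98.4 CPM in heterozygote libraries and 56.2, 69.8, 52.6 and 84.2 CPM in homozygote libraries. The lowest heterozygote was thus above the highest homozygote. The log2 fold change was -0.79 ± 0.22 (SE), with an edgeR adjusted p of 0.164, and DESeq2 gave an adjusted p of 0.0327. Gria3, a calcium-permeable subunit when assembled without the Gria2 product, had 45, 12 and 55 counts in heterozygote libraries and 249, 126, 127 and 141 in homozygote libraries. That is 3.11 ± 1.90 CPM (SD, n = 3) and 12.5 ± 3.87 CPM (SD, n = 4), with a log2 fold change of 2.01 ± 0.55 (SE), with adjusted p-values of 0.163 in edgeR and 0.0127 in DESeq2. Gria3 was highest in homozygote library 1, where leukocyte markers summed to 761 CPM, the lowest of the homozygotes, and spinal cord markers to 122 CPM, above the heterozygotes and second to homozygote library 3. The part of those cells in its level was not tested. The authors' deposited table gives a log2 fold change of 1.68 with an adjusted p of 0.0086. Of the counts over Gria1 to Gria4, Gria3 took 2.39%, 0.94% and 4.37% in heterozygote libraries and 22.0%, 11.4%, 14.96% and 11.4% in homozygote libraries. Gria2 took 94.2%, 94.3% and 89.9% in heterozygote libraries and 68.0%, 81.2%, 77.4% and 80.1% in homozygote libraries. Neither share overlapped between genotypes, and since shares add up within a family they are not independent. Gria4 stood at 3.35 to 6.26 CPM in heterozygotes and 4.08 to 7.71 CPM in homozygotes, with a log2 fold change of 0.26 ± 0.48 (SE), and Gria1 had at most 58 counts in a library.

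In the kainate receptor family the difference lay in Grik1, which encodes the GluK1 subunit of sensory neuron kainate receptors. Grik1 had 382, 237 and 223 counts in heterozygote libraries and 94, 86, 63 and 60 in homozygote libraries. Its level was 23.2 ± 5.71 CPM (SD, n = 3) and 5.92 ± 0.987 CPM (SD, n = 4), so the groups were well apart. The log2 fold change was -1.97 ± 0.32 (SE), with an edgeR adjusted p of 0.0626, the smallest among the receptor genes. It passed the threshold with DESeq2 (adjusted p = 1.19e-05), with edgeR's adjusted quasi-dispersion (0.0411) and without the filter on low counts (0.0407). The authors' deposited table gives a log2 fold change of -1.83. The related core subunit gene Grik2 overlapped between genotypes, at 21.7 ± 0.466 CPM (SD, n = 3) and 22.1 ± 1.98 CPM (SD, n = 4), a log2 fold change of 0.03 ± 0.24 (SE). Grik3 was high in heterozygote library 1 and homozygote libraries 1 and 3 (17.95 to 21.4 CPM) and lower in the other 4 libraries (6.95 to 9.02 CPM). Grik1 therefore took 41.8%, 41.2% and 40.5% of the Grik1 to Grik3 counts in heterozygote libraries and 13.6%, 18.8%, 10.6% and 14.96% in homozygote libraries. Grik5, which encodes an auxiliary high-affinity subunit, had a log2 fold change of -0.67 ± 0.52 (SE).

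NMDA receptor genes were low, and 2 of the 7, Grin2b and Grin3b, passed the filter on low counts. Grin1 encodes the subunit that every NMDA receptor needs, and it had 5, 7 and 7 counts in heterozygote libraries and 5, 1, 9 and 4 in homozygote libraries, too few for a test. An antisense gene, Grin1os, overlaps 29.9% of its exon bases, and no source used here gives the strand setting of the counting. Grin2b, which encodes a glutamate-binding subunit of embryonic NMDA receptors, had 25, 4 and 0 counts in heterozygote libraries and 30, 77, 25 and 36 in homozygote libraries. In CPM the groups just failed to overlap, and the log2 fold change was 2.09 ± 1.15 (SE), with an edgeR adjusted p of 0.517. Over all libraries Grin2b averaged 2.22 CPM and Grin3b 1.57 CPM. Of the delta receptor genes, Grid1 was tested and had a log2 fold change of -0.07 ± 0.82 (SE).

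**Figure D2:**
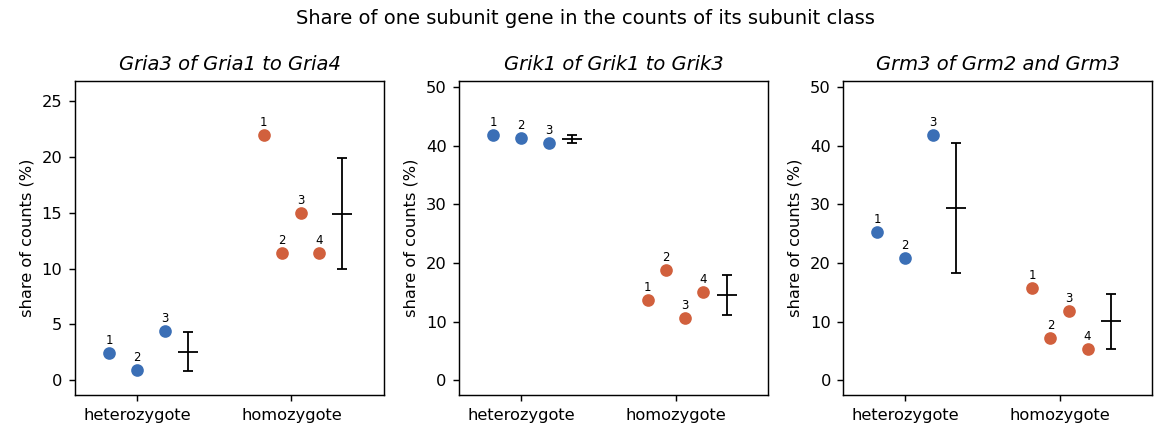
Share of Gria3 in the counts of Gria1 to Gria4, of Grik1 in those of Grik1 to Grik3, and of Grm3 in those of Grm2 and Grm3. The axis is linear, in percent. Each library is a point numbered by its replicate, with the mean ± SD beside it (3 heterozygotes in blue, 4 homozygotes in orange). The genotypes do not overlap in any of the panels; Grik1 took 41.2 ± 0.66% of the Grik1 to Grik3 counts in heterozygotes and 14.5 ± 3.41% in homozygotes.

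Of the metabotropic glutamate receptor genes, Grm3 was lower in homozygotes and its group II partner Grm2 overlapped between genotypes. Both couple to inhibition of adenylyl cyclase. Grm3 had 197, 240 and 514 counts in heterozygote libraries and 138, 136, 77 and 64 in homozygote libraries, or 26.9 ± 15.6 CPM (SD, n = 3) and 8.06 ± 2.64 CPM (SD, n = 4). Heterozygote library 3 was the highest and the groups did not overlap. The log2 fold change was -1.74 ± 0.43 (SE), with adjusted p-values of 0.138 in edgeR and 0.00846 in DESeq2, and it was -1.15 without heterozygote library 3. Grm2 stood at 45.2, 79.0 and 62.2 CPM in heterozygote libraries and at 53.8, 137, 46.1 and 95.5 CPM in homozygote libraries. These ranges overlapped, with a log2 fold change of 0.42 ± 0.37 (SE), with an edgeR adjusted p of 0.73. Grm3 thus took 29.3 ± 11.1% of the summed Grm2 and Grm3 counts in heterozygotes and 10.02 ± 4.68% in homozygotes, without overlap. Among the group III genes, which couple the same way, Grm4 was highest in the same homozygote libraries as Grm2, at 40.4 CPM in library 2 and 43.8 CPM in library 4, while the other 5 libraries lay at 12.7 to 21.1 CPM (log2 fold change 0.76 ± 0.38, SE; adjusted p = 0.454, edgeR). Grm7 had 1, 0 and 0 counts in heterozygote libraries and 2, 17, 10 and 15 in homozygote libraries, a ratio of 31.0 with a 95% exact interval of 5.29 to 1254 that covers counting error only (adjusted p = 0.218, edgeR). Grm8 had 16, 1 and 59 counts in heterozygote libraries and 2, 0, 0 and 10 in homozygote libraries (log2 fold change -3.08 ± 1.54, SE; adjusted p = 0.459, edgeR), and these overlapped.

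The 250 bases before the annotated start of Grm3, Grm2, Gria2 and Gria4 are printed because each pair sets a gene that was lower in homozygotes (Grm3, Gria2) beside a family member whose groups overlapped (Grm2, Gria4). They are from RefSeq, build GRCm38.p6, which is not the mm9 build of the files, and all run 5′ to 3′ on the minus strand. Capitals mark a Runx core motif, TGTGGT or TGCGGT, or its reverse complement, ACCACA or ACCGCA. The windows are chr5:9725353-9725602 for Grm3, chr9:106656110-106656359 for Grm2, chr3:80802836-80803085 for Gria2 and chr9:4796235-4796484 for Gria4.
Grm3: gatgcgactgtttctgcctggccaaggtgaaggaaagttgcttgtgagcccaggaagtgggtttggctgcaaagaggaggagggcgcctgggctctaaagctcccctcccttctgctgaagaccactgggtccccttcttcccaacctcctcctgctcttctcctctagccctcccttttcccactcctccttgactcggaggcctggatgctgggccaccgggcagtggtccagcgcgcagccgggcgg
Grm2: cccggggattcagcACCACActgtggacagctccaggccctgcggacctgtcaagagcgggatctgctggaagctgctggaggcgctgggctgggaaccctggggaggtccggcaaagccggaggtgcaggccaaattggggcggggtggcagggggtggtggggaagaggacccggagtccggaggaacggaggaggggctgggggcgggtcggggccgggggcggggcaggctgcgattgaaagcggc
Gria2: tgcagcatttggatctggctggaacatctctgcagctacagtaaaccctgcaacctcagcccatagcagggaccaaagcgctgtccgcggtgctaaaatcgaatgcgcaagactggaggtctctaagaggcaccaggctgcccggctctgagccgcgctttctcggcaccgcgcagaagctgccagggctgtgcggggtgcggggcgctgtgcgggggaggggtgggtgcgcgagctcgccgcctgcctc
Gria4: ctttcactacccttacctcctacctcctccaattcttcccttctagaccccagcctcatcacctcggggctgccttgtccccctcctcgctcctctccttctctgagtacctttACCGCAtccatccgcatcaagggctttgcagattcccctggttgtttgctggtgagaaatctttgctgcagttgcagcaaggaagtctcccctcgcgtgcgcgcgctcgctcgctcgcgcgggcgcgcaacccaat

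The Grm2 window holds ACCACA starting 236 bases before the gene's start and the Gria4 window ACCGCA starting 136 bases before it; neither motif's letters are in the Grm3 or Gria2 window. These are matches of letters only. Either motif, on either strand, was in 6107 of the 32851 promoter windows of the table (18.6%) and in 6 of the 54 windows of receptor genes (11.1%). Those 54 windows belong to 46 of the receptor genes, and the 6 with a match belong to Grin1, Gabrr1, Gabra4, Gabrb1, Gria4 and Grm2. Grik1 and Gria3 have no entry in the table.

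Of the GABA-A receptor genes, the beta subunit gene Gabrb2 was higher in homozygotes. Beta subunits form part of the GABA-binding site and anchor the receptor. Gabrb2 had 8, 27 and 101 counts in heterozygote libraries and 198, 148, 300 and 124 in homozygote libraries. Its log2 fold change was 1.95 ± 0.75 (SE), with adjusted p-values of 0.308 in edgeR and 0.0902 in DESeq2, and it was 3.36 without heterozygote library 3, whose count was the nearest to the homozygotes. Gabrb2 was highest in homozygote library 3, which also had the highest summed leukocyte and spinal cord markers, and the part of those cells in its level was not tested.

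The GABA-A alpha subunit genes Gabra3 and Gabra2 overlapped between genotypes and had log2 fold changes of -0.15 ± 0.39 and -0.04 ± 0.65 (SE), with Gabra2 down to 1.52 CPM in homozygote library 3 alone. Gabbr1 and Gabbr2, which encode the subunits of the GABA-B heterodimer, had log2 fold changes of -0.70 ± 0.59 and -0.89 ± 0.62 (SE). Each overlapped between genotypes, but their sum did not: it was 7.95, 8.91 and 10.3 CPM in heterozygote libraries and 4.30, 5.21, 5.77 and 5.59 CPM in homozygote libraries, a sum looked at after the values were seen and given without a test. Glycine receptor genes were low. Glrb, the beta subunit that ties glycine receptors to gephyrin, and Glra2, the embryonic alpha subunit, had log2 fold changes of -0.17 ± 0.53 and 0.23 ± 0.78 (SE).

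**Figure D3:**
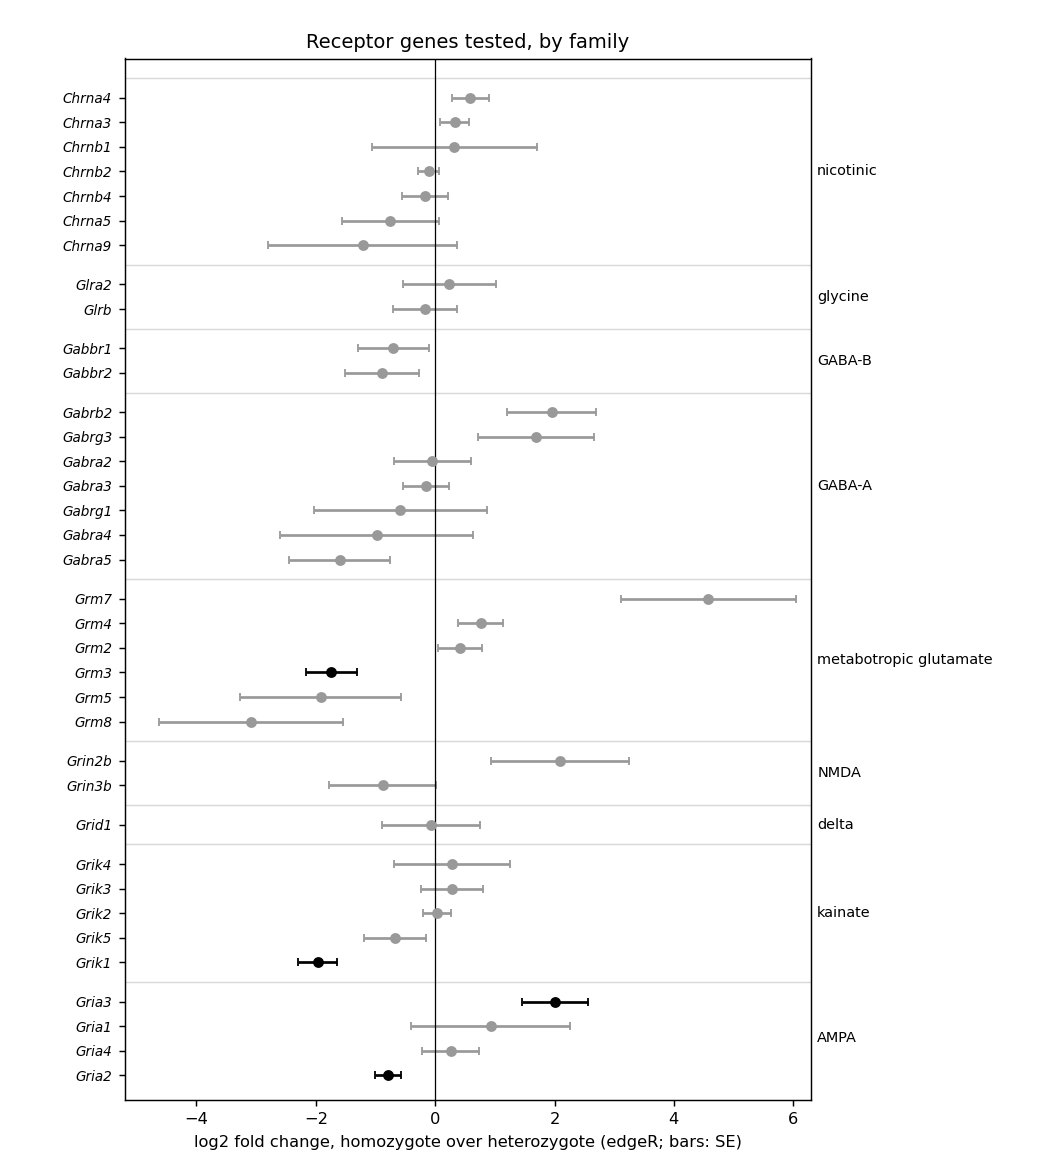
log2 fold change, homozygote over heterozygote, of 36 of the 38 tested receptor genes by family (edgeR quasi-likelihood fit; bars are ± SE). Black points are genes with a DESeq2 adjusted p below 0.05 and grey points the others; the black points are Gria3 to the right of 0 and Grik1, Grm3 and Gria2 to its left.

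Nicotinic receptor genes made up the largest family share of the receptor counts, 30.9% on average in heterozygotes and 37.1% in homozygotes. By library this share was 28.7% to 32.2% in heterozygotes and 33.5% to 41.3% in homozygotes, without overlap. The AMPA share (14.4% to 19.6% against 10.7% to 14.2%) and the GABA-B share (1.06% to 1.35% against 0.63% to 1.04%) did not overlap either. Both were lower in homozygotes, and the shares of the other families overlapped. Family shares add up, so they are not independent, and they were not tested. The summed AMPA level did not overlap, at 109 to 146 CPM in heterozygotes and 68.0 to 105 CPM in homozygotes. The summed nicotinic level did overlap, at 218 to 238 CPM and 205 to 292 CPM, and so did each of the 7 genes tested. Most of these counts came from 4 genes: Chrna3 and Chrnb4, which form the ganglionic type of receptor, and Chrna4 and Chrnb2, which form the main type in the brain. Chrna3 stood at 58.6 ± 15.2 CPM (SD, n = 3) and 73.4 ± 15.9 CPM (SD, n = 4), a log2 fold change of 0.33 ± 0.24 (SE), with an edgeR adjusted p of 0.657. Chrna4 stood at 33.5, 62.7 and 37.6 CPM in heterozygote libraries and at 89.0, 75.8, 61.8 and 42.1 CPM in homozygote libraries. Its log2 fold change was 0.59 ± 0.31 (SE), with an edgeR adjusted p of 0.488, and homozygote libraries 3 and 4 lay within the heterozygote range. Chrnb2 had a log2 fold change of -0.11 ± 0.17 (SE), though 16.4% of its exon bases overlap Adar on the opposite strand. Chrnb4 had -0.18 ± 0.39 (SE), with its lowest level, 8.89 CPM, in homozygote library 3.

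The 5 nicotinic genes of the muscle receptor varied from library to library in both genotypes. They are Chrna1, Chrnb1, Chrnd, Chrng and Chrne, which encode the receptor of the neuromuscular junction and of embryonic muscle. All 5 were at 0 in homozygote library 1. Homozygote library 2 had 20 counts of Chrna1, 39 of Chrnb1, 15 of Chrnd, 28 of Chrng and 2 of Chrne, and it was also the library with the highest summed skeletal muscle markers, 258 CPM against 15.9 to 39.2 CPM elsewhere. Chrnd had reads in that library alone. Chrnb1 also had 55 counts in homozygote library 4 and 35 in heterozygote library 2, where those markers summed to 39.2 and 17.8 CPM. The part of muscle cells in these counts was not tested. They were picked out after their values were seen.

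**Figure D4:**
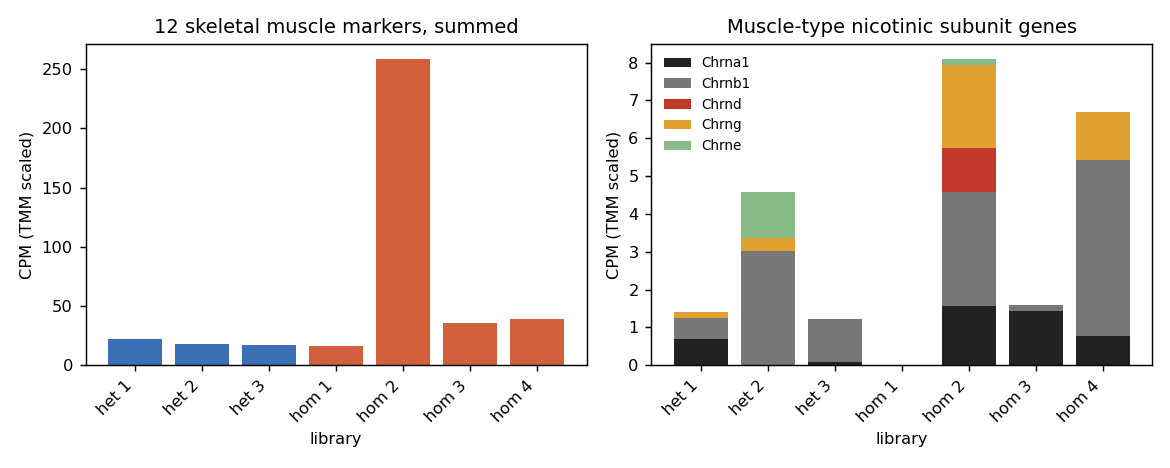
Left, summed CPM of 12 skeletal muscle markers in each library (bars from 0; heterozygotes blue, homozygotes orange); right, stacked CPM of the 5 muscle-type nicotinic subunit genes in the same libraries. Homozygote library 2 is highest in both panels, at 258 CPM of markers, and homozygote library 1 has none of the 5 nicotinic genes.

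Levels were compared between genes per kilobase of exon, as CPM per kb, using exon lengths of GENCODE M21 for GRCm38 and not the authors' annotation. Averaged over all libraries, high values were found for Grm2 at 15.7 CPM per kb, Chrna3 at 12.7, Chrna4 at 12.1, Chrnb2 at 11.04 and Gria2 at 8.21. Of these 5 genes, Gria2 was the one whose genotypes did not overlap. Of Grm2's exon bases, 9.5% overlap a gene on the opposite strand. Grik1 stood at 3.15, Gabrb2 at 2.52 and Gria3 at 1.56 CPM per kb, and no NMDA gene exceeded 0.479 CPM per kb. The 18 genes with a mean of at least 5 CPM held 93.2% of the receptor counts.

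**Figure D5:**
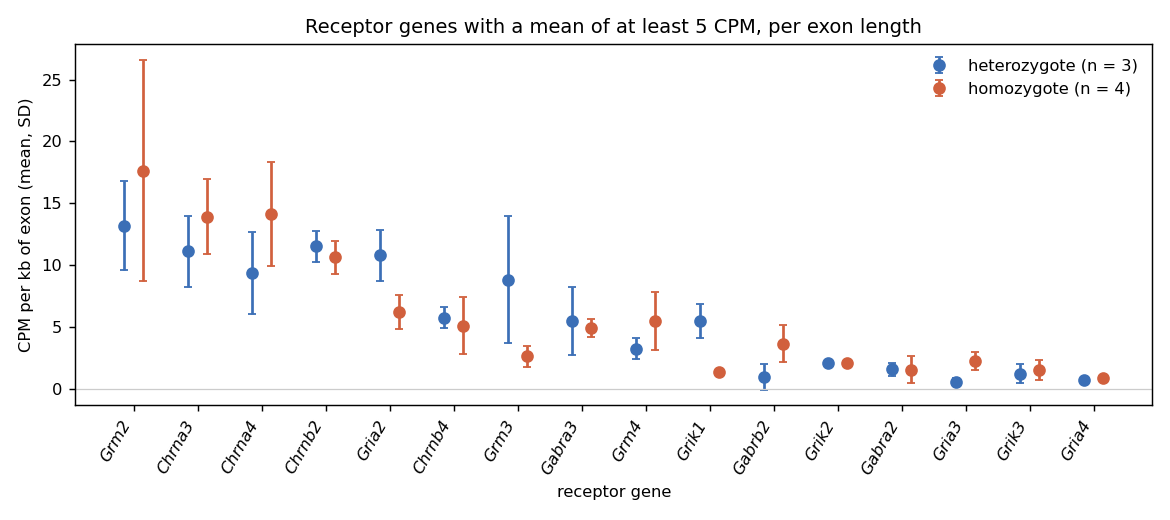
CPM per kb of exon (linear axis) for 16 of the 18 receptor genes with a mean of at least 5 CPM, as mean ± SD by genotype (blue, 3 heterozygotes; orange, 4 homozygotes), ordered by the mean over all libraries. The order runs from Grm2 at 15.7 CPM per kb downward; Grik1, at 3.15 CPM per kb over all libraries, shows bars well apart, and those of Grik2 coincide.

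The genes that work with these receptors were tested in the same fit. Of 71 auxiliary, scaffold, transmitter synthesis and transport genes, 59 were tested and edgeR called 0. An unadjusted p below 0.05 was found for 7 of the 59 (11.9%), beside 12.6% of all tested genes, and DESeq2, which called 4.76% of all genes, called 1 of the 59, Slc1a2, the glutamate transporter best known from astrocytes. It had 756, 683 and 585 counts in heterozygote libraries and 1310, 1685, 976 and 1207 in homozygote libraries. Every homozygote lay above every heterozygote, with a log2 fold change of 0.85 ± 0.21 (SE) and adjusted p-values of 0.135 in edgeR and 0.00546 in DESeq2. The summed neural crest and glia markers overlapped between genotypes, at 1616 to 2154 CPM in heterozygotes and 1082 to 2127 CPM in homozygotes. Spinal cord markers summed to 16.9 to 60.9 CPM in heterozygotes and 42.5 to 156 CPM in homozygotes. The part of any of these cells in the Slc1a2 level was not tested. Slc17a6, the vesicular glutamate transporter of sensory neurons, had a log2 fold change of -0.46 ± 0.24 (SE), with an edgeR adjusted p of 0.484. Abat, which breaks down GABA, and Cpt1c, an AMPA receptor accessory protein, had log2 fold changes of -0.09 ± 0.26 and -0.14 ± 0.23 (SE), and Ly6e, of the family of nicotinic receptor modulators, 0.49 ± 0.24 (SE). Median log2 fold changes were 0.046 over the 36 tested accessory and scaffold genes and 0.135 over the 23 tested synthesis and transport genes. The chloride importer Slc12a2, looked at after its values were seen, had 458 to 601 counts in heterozygotes and 446 to 727 in homozygotes, whereas the chloride exporter Slc12a5 had at most 33 counts in a library. The GABA-synthesising genes Gad1 and Gad2 were also looked at afterwards. Gad1 had 116, 54 and 0 counts in heterozygote libraries and 127, 124, 248 and 36 in homozygote libraries, which overlapped. Gad2 had 65, 51 and 0 counts in heterozygote libraries and 248, 100, 383 and 81 in homozygote libraries, without overlap. Its log2 fold change was 2.32 ± 1.03 (SE), with an edgeR adjusted p of 0.388. Both genes were highest in homozygote library 3, which also had the highest summed leukocyte and spinal cord markers. The part of those cells in their levels was not tested.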

How the data were processed

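The authors deposited a raw count for each gene in each library. The submitters' processing notes name TopHat 1.4.0, HTSeq, DESeq2 1.2.8 and the build mm9, without a role for each. cDNA was amplified before library making and sequenced single-end, per the labels' protocols, so counts are reads and not molecules, and intervals cover counting error only. From the authors' deposited comparison, log2 fold changes (heterozygote over homozygote) were copied with their sign turned, together with the deposited adjusted p-values; the deposited normalized reads were not used. No other column of values per sample was left out.

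Genes were kept by filterByExpr (minimum count 10, minimum total 15), scaled by TMM and tested with edgeR 4.0.16 (glmQLFit, glmQLFTest, two-sided, R 4.3.3). P-values were adjusted by Benjamini-Hochberg over all 14040 genes and called below 0.05; the SE is the log2 fold change over the square root of F. DESeq2 1.42.0, on the same genes, and limma-voom (limma 3.58.1) were alternatives, beside other scalings, filters, left-out libraries and a window of label dates. Library pairs of a genotype differed by a chi-square of 29.1 to 72.0 per degree of freedom, more than sampling noise. The edgeR and DESeq2 steps were tested on simulated data.

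Named genes were Runx3, receptor genes with a mean of at least 5 CPM, the 10 with the smallest p, those called by either tool or on the authors' shorter list, the most abundant of each family, and, among partner genes, those called and the 2 most abundant of each list. Of the named receptor genes, 24 in all, 17 had a promoter window. The members, lists and rule were chosen with earlier results of these data known. Counts cover all receptor genes, 2 of which are not reported here by name. Marker genes that matched no row were not analysed here. No gene coordinates are given in the files' build, because the reference used is GRCm38.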

Additional observations from a re-analysis of the deposited data

How the results depend on the processing

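Over all genes, edgeR called 7 genes as run and 668 with DESeq2, 61 with the adjusted quasi-dispersion, 80 without the filter on low counts and 12 without both libraries 3; leaving out 1 library at a time gave 1 to 27. Among receptor genes the 0 calls became 5 with DESeq2 (Grik1, Gria2, Gria3 and Grm3 among them), 1 with the adjusted quasi-dispersion and 1 without the filter, Grik1 in both; among partner genes the 0 calls became 1 with DESeq2. The cause was not tested. The median receptor log2 fold change lay between -0.227 and 0.0405 over the alternatives. Of 29 named genes other than Runx3, 19 kept their direction in every alternative run and 10, uncalled throughout, turned in at least 1, among them Grik2, Grik3, Gabra2, Gabra3, Chrnb2, Chrnb4, Glrb and Grid1. Grik1 ranged from -2.07 to -1.74, Grm3 reached -1.05 without both libraries 3, and Gabrb2 ranged from 1.45 to 3.36. Runx3 was called in 15 of 17 alternatives, its adjusted p reaching 0.0885 without heterozygote library 2 and 0.0576 without heterozygote library 3. The shares of Gria3, Grik1 and Grm3 kept their direction whichever library was left out, an alternative added after the values were seen. That outcome was fixed in advance, because these shares did not overlap between genotypes, so it adds no support. No paired analysis was possible because the labels carry dates and no replicate numbers shared between genotypes; label date and genotype were not separated further than by the window of dates, which left out homozygote libraries 1 and 3. Heterozygote library 1 is inside that window only by its source name, which gives month 11; its title gives month 1. Depth limits the 26 untested receptor genes, of which the highest had 97 counts in all.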

Other observations

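Reads of several sparse receptor genes came from 1 or a few libraries. Of the 64 receptor genes, 15 were at 0 in at least 1 library and had at least 20 counts in another. Grm6, the group III receptor of retinal bipolar cells, had 72 counts in homozygote library 1 and 0 in each of the other 6 libraries. Gabrq, the theta subunit of GABA-A receptors, had 33 counts in heterozygote library 1 and 64 in homozygote library 2, with 0 elsewhere. Grm5, a group I receptor, had 56, 12 and 42 counts in heterozygote libraries and 0, 18, 22 and 0 in homozygote libraries. Chrna9, known from cochlear hair cells, had 17, 17 and 12 counts in heterozygote libraries and 28 in homozygote library 2, with 0 in the other 3 homozygote libraries. These genes, chosen after their values were seen, are given as values only; 23 of the 64 had under 50 counts over all libraries.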
